A study of Mus musculus with 15 samples.

Results

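Methyl group metabolism and choline handling were followed in mouse liver through 10 genes, chosen by name from 54281 genes in the table. The methyltransferase genes are Inmt, Nnmt, Gnmt, Pemt and Gamt. The genes of the methionine cycle and its exit are Mat1a, Ahcy, Bhmt and Cbs, and Chka is the gene of choline kinase alpha. Inmt and Chka were chosen for how they differed between MCOPPB and saline under DEN/HFD, and the other 8 for their function. All 10 were among the 11568 genes that passed the filter on low values.

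Liver RNA came from 15 male C57BL6J mice aged 9.5 months, with 1 library per animal. DEN/HFD mice had received the liver carcinogen diethylnitrosamine (DEN, 25 mg/kg) at 2 weeks of age and, after chow until week 6, a high fat diet (HFD) for 32 weeks, with 60% of its energy from lard. Chow mice had received the vehicle and stayed on chow. The ligand MCOPPB, which binds the nociceptin/orphanin FQ receptor and is called a senolytic in the series title, was injected intraperitoneally at 5 mg/kg, in 3 cycles of 5 days with 2 days of washout (21 days), and the other mice were injected with saline. The groups were DEN/HFD MCOPPB (n = 3), DEN/HFD saline (n = 4), chow MCOPPB (n = 5) and chow saline (n = 3). DEN and the high fat diet were always given together, so their effects cannot be told apart. The labels give neither the time of day at sampling nor which lesions the pieces of liver held.

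Liver makes S-adenosylmethionine, the methyl donor of the cell, from methionine, and methyltransferases turn it into S-adenosylhomocysteine. Homocysteine released from that product is either methylated back to methionine, with betaine made from choline as one donor, or leaves the cycle through transsulfuration toward cysteine and taurine. Choline itself is used for phosphatidylcholine through the kinase pathway, and phosphatidylethanolamine can be methylated to the same phospholipid. Mice on choline-poor or methionine-poor diets, and mice lacking Mat1a, Gnmt or Pemt, are known for fatty liver or its complications.

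The estimated depth of the libraries was 9.32 M to 18.7 M reads assigned to genes. The share of mitochondrially encoded transcripts was 12.01% to 31.0%, with the highest shares in chow MCOPPB 4 (31.0%) and chow saline 2 (29.3%). The labels carry 2 RNA integrity numbers (RIN) per sample. The first ran from 8.7 to 9.2 in DEN/HFD MCOPPB, from 8.4 to 9.2 in DEN/HFD saline, from 9.9 to 10 in chow MCOPPB and from 9 to 9.7 in chow saline. It therefore did not overlap between chow MCOPPB and any other group, and the first RIN and the group cannot be told apart in comparisons with chow MCOPPB. Markers of hepatocytes were present in every library, and no gene of the other marker lists was at 0 in all libraries.

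The 2 genes chosen for their response differ in the 250 bases of genome sequence before their RefSeq start sites (GRCm38.p6), shown here so that both promoters can be read side by side. Capitals mark the letters TATAAA in the Inmt sequence, which lies at chr6:55174991-55175240 on the minus strand. Capitals mark the letters CCAAT in the Chka sequence, which lies at chr19:3851523-3851772 on the plus strand. Both motifs were picked after the sequences had been seen.
Inmt: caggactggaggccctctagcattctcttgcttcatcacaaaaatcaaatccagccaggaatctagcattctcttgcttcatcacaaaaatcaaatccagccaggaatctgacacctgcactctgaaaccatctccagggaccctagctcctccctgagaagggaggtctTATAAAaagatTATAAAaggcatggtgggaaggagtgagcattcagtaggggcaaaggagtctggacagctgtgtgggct
Chka: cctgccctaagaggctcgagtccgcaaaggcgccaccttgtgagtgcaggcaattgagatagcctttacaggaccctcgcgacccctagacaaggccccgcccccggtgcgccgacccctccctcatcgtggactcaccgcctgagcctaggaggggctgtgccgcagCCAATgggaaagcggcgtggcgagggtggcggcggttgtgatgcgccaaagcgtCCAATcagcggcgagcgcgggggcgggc
The Inmt sequence has a GC content of 48% and the Chka sequence one of 68%, beside a median of 52.4% over 32851 such sequences. The Inmt sequence holds TATAAA at 2 places and contains a run of 46 bases that occurs back to back, starting at positions -235 and -189 from the start site. TATAAA occurs on either strand in 12.4% of the 32851 sequences, and CCAAT, present at 2 places before Chka, in 33.8%. Among the 8 members with such a sequence, those of Ahcy, Bhmt, Cbs, Gnmt and Pemt also hold CCAAT. The other motifs were also sought on both strands. The E-box CACGTG occurs before Cbs and in 6.02% of all sequences, and the STAT5 motif TTCNNNGAA before Pemt and in 7.02%. A sterol regulatory element, TCACNCCAC, occurs before Gnmt and in 1.05%. The D-box TTATGTAA, found in 0.819% of all sequences, occurs before none of the 8. Pemt has 2 such sequences. The motifs given for Pemt lie in that at chr11:60040189-60040438, and that at chr11:60037006-60037255 holds none of those sought.

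Levels of the 10 genes spanned a wide range. Per kilobase of exon, the means over 15 libraries were 6574 ± 4169 normalized counts for Bhmt (SD), 5985 ± 2027 for Ahcy, 5948 ± 2784 for Gnmt and 5407 ± 2066 for Mat1a, and these 4 neighbours did not differ beyond their spread. Inmt followed at 2683 ± 1280, below Mat1a in 14 of 15 libraries. Gamt (1030 ± 310), Pemt (864 ± 255) and Nnmt (658 ± 223) formed the next step, and Cbs came after them at 419 ± 107. The place of Cbs depends on the length used, which merged all annotated exons of a gene. That length was 7485 bases for Cbs, against 1444 for Gamt, 2104 for Pemt and 1576 for Nnmt. Without division by length Cbs averaged 3138 normalized counts, above Pemt (1818), Gamt (1487) and Nnmt (1037). Chka was lowest at 12.5 ± 7.51 per kilobase and lay below Cbs in 15 of 15 libraries. On the deposited log2 scale, the members varied more between animals of 1 group than most genes did. Their median residual SD was 0.42 on the log2 scale, against 0.30 over all genes tested, and all 10 lay above that median. The lowest level percentile among members other than Chka was 91.0, and the scale shrinks differences of weakly expressed genes. The members were therefore not compared with genes of like level.

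**Figure D1:**
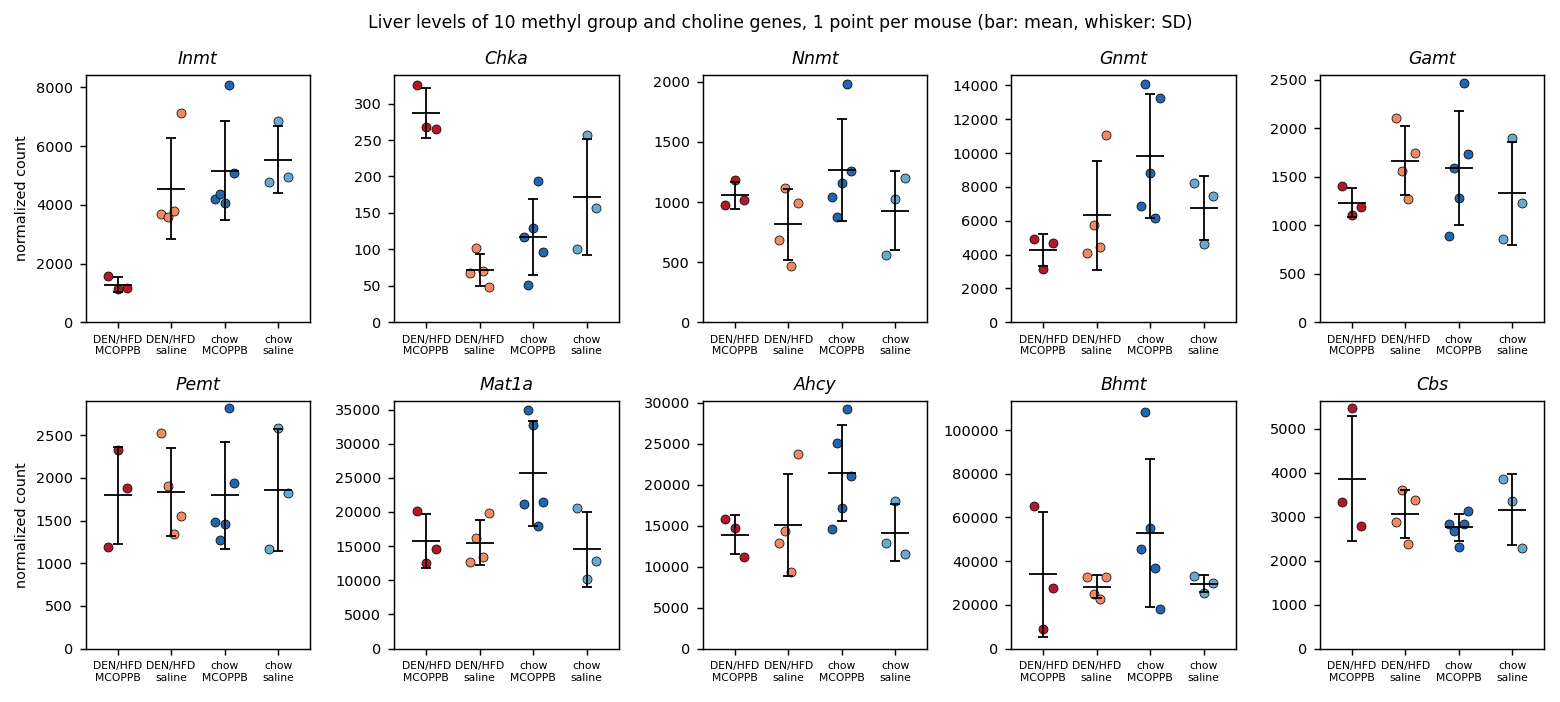
Normalized count (vertical axis, linear, starting at 0) of each of the 10 genes in every mouse, by group, with DEN/HFD MCOPPB at the left of each panel. Horizontal bars are group means and whiskers are SD. The 3 DEN/HFD MCOPPB points of Inmt lie below, and those of Chka above, the points of the other 12 mice, while the groups of the other 8 genes overlap under DEN/HFD. For Chka, the highest chow saline point lies just below the DEN/HFD MCOPPB points.

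The first comparison asked what MCOPPB changed in livers under DEN/HFD. Inmt (ENSMUSG00000003477.5, chr6:55170626-55175043, minus strand) encodes an enzyme that methylates indoles and other small amines. It stood at 1562, 1122 and 1149 normalized counts in DEN/HFD MCOPPB mice, against 3692, 3576, 3786 and 7118 in DEN/HFD saline mice. Every DEN/HFD MCOPPB mouse was thus lower than every DEN/HFD saline mouse, and DEN/HFD saline 4 stood well above the other 3 of its group. The means were 1278 ± 247 in DEN/HFD MCOPPB (SD, n = 3) and 4543 ± 1719 in DEN/HFD saline (n = 4), a ratio of 0.281 and a log2 difference of -1.71 ± 0.27 (moderated SE). Without DEN/HFD saline 4 the log2 difference was -1.48.

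Chka (ENSMUSG00000024843.15, chr19:3851773-3894369, plus strand) encodes choline kinase alpha, which phosphorylates choline in the first step of phosphatidylcholine synthesis. Its level was 326, 268 and 266 normalized counts in DEN/HFD MCOPPB mice, against 67.3, 101, 70.8 and 49.0 in DEN/HFD saline mice. The groups did not overlap, and the lowest DEN/HFD MCOPPB mouse had more than the highest mouse of the other group by a wide margin. The means were 287 ± 34.2 in DEN/HFD MCOPPB and 72.1 ± 21.8 in DEN/HFD saline, a ratio of 3.97 and a log2 difference of 1.33 ± 0.25. The deposited scale shrinks differences of weakly expressed genes, so this log2 difference is smaller than the ratio of the means implies.

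Since these values chose both genes, they are given as a description, with no test. In this comparison 3 of all genes tested (0.0259%) had a limma adjusted p under 0.05. Inmt was among them, which carries no weight because it was chosen on the same values. Inmt was lower in the 3 DEN/HFD MCOPPB mice than in all 12 other mice, as were 0.692% of the genes tested, and Chka was higher there than in all 12, as were 0.450%. Nothing is read from these shares, since the choice of both genes used the same mice. For Chka, the lowest DEN/HFD MCOPPB mouse (266 normalized counts) stood only a little above chow saline 2 (257).

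The 8 genes chosen by function showed no such separation. Their groups overlapped in every case. Of all genes tested, 6.96% did not overlap in this comparison, so overlap of all 8 does not set these genes apart. Gnmt (ENSMUSG00000002769.9, chr17:46725664-46729168, minus strand), which methylates glycine and so uses up surplus S-adenosylmethionine, had 4943, 3154 and 4710 normalized counts in DEN/HFD MCOPPB, against 4090, 5733, 4427 and 11050 in DEN/HFD saline. Its log2 difference was -0.47 ± 0.35, and it rests in part on DEN/HFD saline 4, without which it was -0.16. Nnmt (ENSMUSG00000032271.13, chr9:48591877-48605153, minus strand), which methylates nicotinamide, had 972, 1185 and 1017 normalized counts in DEN/HFD MCOPPB, against 683, 1116, 466 and 995 in DEN/HFD saline (log2 difference 0.40 ± 0.30).

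Gamt (ENSMUSG00000020150.13, chr10:80258151-80261012, minus strand), which makes creatine from guanidinoacetate, had 1404, 1108 and 1188 normalized counts in DEN/HFD MCOPPB, against 2105, 1554, 1264 and 1740 in DEN/HFD saline (log2 difference -0.39 ± 0.29). Cbs (ENSMUSG00000024039.15, chr17:31608894-31637238, minus strand), the first enzyme of transsulfuration, had 3328, 5474 and 2797 in DEN/HFD MCOPPB, against 2870, 3596, 2376 and 3384 in DEN/HFD saline (0.29 ± 0.24). Without DEN/HFD MCOPPB 2 its log2 difference was 0.01. The other 4 genes, Pemt, Mat1a, Ahcy and Bhmt, had log2 differences between -0.14 and 0.02, each smaller than its SE. The median over all 10 members was -0.04, beside 0.00 over all genes tested.

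Bhmt (ENSMUSG00000074768.6, chr13:93616675-93637961, minus strand), which moves a methyl group from betaine to homocysteine, was the most variable of the 10. It had 65356, 8976 and 27526 normalized counts in DEN/HFD MCOPPB, against 32869, 25182, 22573 and 32700 in DEN/HFD saline. The 3 DEN/HFD MCOPPB mice thus reached both above and below the narrow range of the DEN/HFD saline mice. The residual SD of Bhmt over the 4 groups was 0.84 (log2), above that of 99.1% of genes tested. The annotated transcripts of Bhmt align to those of Gm5096 with 99.4% identity over 1869 bases. Gm5096 averaged 2.71 normalized counts and reached at most 10.5, beside a mean of 37855 for Bhmt. How reads that fit both genes were assigned was not tested.

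Other features also differed between the DEN/HFD MCOPPB and DEN/HFD saline livers. The summed level of 20 clock genes, of which 19 passed the filter, was 3069 to 4457 normalized counts in DEN/HFD MCOPPB and 5838 to 8424 in DEN/HFD saline, with no overlap. Of these 19 genes, 15 had negative and 4 positive log2 differences, and 1 passed the limma test. Dbp, a transcription factor of the clock output, had 494, 313 and 756 in DEN/HFD MCOPPB, against 1914, 1800, 1713 and 1827 in DEN/HFD saline. Of the 16 genes listed for female-biased liver expression, the sum was 3752 to 5178 in DEN/HFD MCOPPB and 1468 to 1880 in DEN/HFD saline. The sum of 16 male-biased genes was 74619 to 161119 in DEN/HFD MCOPPB and 208756 to 2260850 in DEN/HFD saline. Of 12 markers of hepatocytes around the central vein, 7 had positive and 5 negative log2 differences, and their sum was 89234 to 138654 in DEN/HFD MCOPPB and 122294 to 259825 in DEN/HFD saline, with overlap. Among them Glul had 17029 to 21703 in DEN/HFD MCOPPB and 10309 to 15892 in DEN/HFD saline, and Cyp2e1 had 41076 to 81134 in DEN/HFD MCOPPB and 63362 to 200891 in DEN/HFD saline. The part of these features in the values of Inmt and Chka was not tested. In whole liver RNA, fewer cells of a type and less RNA per cell cannot be told apart.

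**Figure D2:**
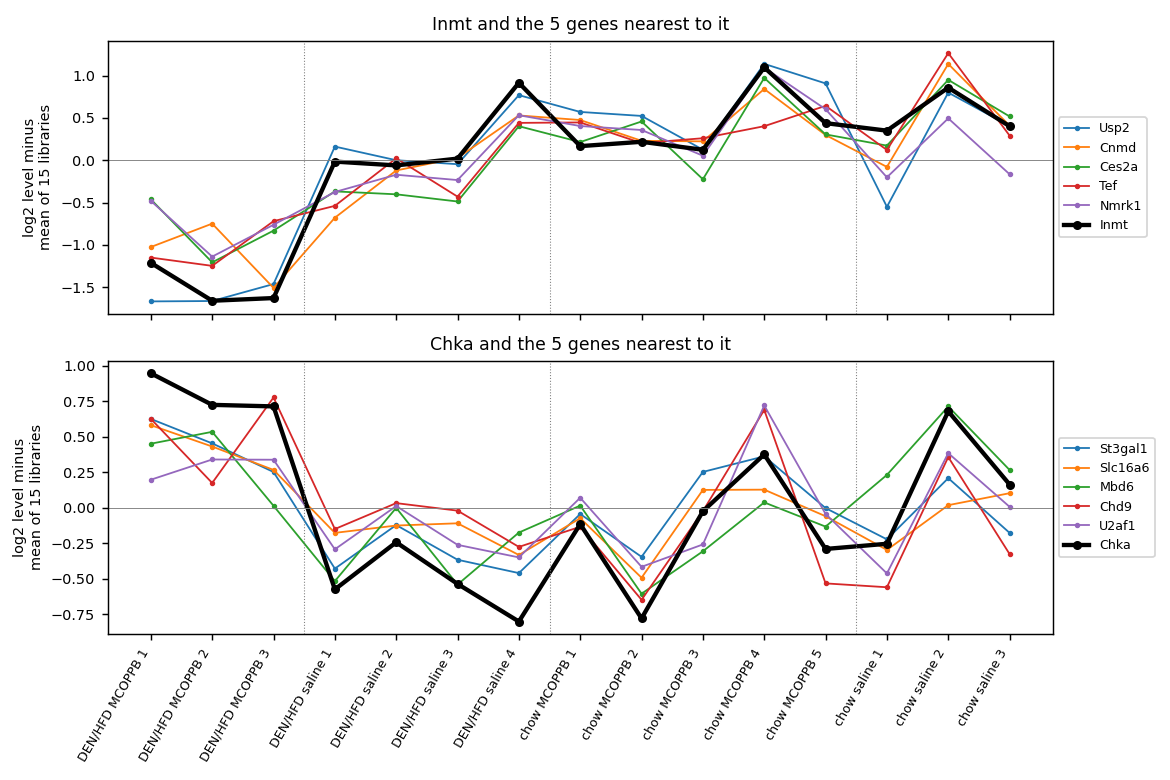
Level in each of the 15 mice (horizontal axis, DEN/HFD MCOPPB at the left) as log2 deposited value minus the gene's mean over all mice (vertical axis), for Inmt and its 5 nearest genes above and for Chka and its 5 nearest genes below. The black line of Inmt lies below 0 and that of Chka above 0 in the 3 DEN/HFD MCOPPB mice, and the colored lines follow them to differing degrees.

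The genes whose pattern over the 15 libraries came nearest to Inmt, by root mean square (RMS) difference of mean-centred log2 values, were Usp2 (0.33), Cnmd (0.36), Ces2a (0.40), Tef (0.41) and Nmrk1 (0.43). The median gene differed from Inmt by 0.88, and Inmt itself varied by 0.83 about its mean. Usp2, which encodes a ubiquitin protease and is in the clock list above, averaged 55.3 ± 9.50 normalized counts in DEN/HFD MCOPPB, 383 ± 133 in DEN/HFD saline, 546 ± 167 in chow MCOPPB and 403 ± 206 in chow saline. Tef, which encodes a transcription factor and is also in the clock list, averaged 304 ± 77.7 in DEN/HFD MCOPPB, 662 ± 241 in DEN/HFD saline, 950 ± 126 in chow MCOPPB and 1149 ± 569 in chow saline. For Chka the nearest were St3gal1 (0.29), Slc16a6 (0.33), Mbd6 (0.34), Chd9 (0.35) and U2af1 (0.35), where the median gene differed by 0.63 and Chka itself varied by 0.56. St3gal1, a sialyltransferase gene, averaged 818 ± 116 in DEN/HFD MCOPPB, 438 ± 57.6 in DEN/HFD saline, 606 ± 129 in chow MCOPPB and 553 ± 109 in chow saline. These neighbours were sought over the same libraries that chose Inmt and Chka, so they are a description.

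The second comparison, of MCOPPB with saline in chow mice, used other animals than the comparison that chose Inmt and Chka. None of the 10 had a limma adjusted p under 0.05, the smallest being 0.335, while 37 of all genes tested (0.320%) passed and 1048 had an unadjusted p under 0.05. The groups of all 10 members overlapped, and 4.77% of genes tested did not overlap. Of the 10 members, 6 were higher and 4 lower, with a median log2 difference of 0.33, beside 0.00 over all genes tested.

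Inmt stood at 4202, 4357, 4076, 8084 and 5091 normalized counts in chow MCOPPB mice, against 4783, 6839 and 4963 in chow saline mice. Its log2 difference was -0.13 ± 0.26 (limma adjusted p = 0.913), and without chow MCOPPB 4, the highest library, the chow MCOPPB mice ranged from 4076 to 5091. Chka stood at 117, 50.6, 129, 194 and 96.0 in chow MCOPPB, against 100, 257 and 157 in chow saline, a log2 difference of -0.36 ± 0.24 (limma adjusted p = 0.698). Both genes overlapped widely between the chow groups. A difference of the size seen under DEN/HFD was not detected for either gene, and the sign for Chka was the opposite one.

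The gene with the smallest p among the 10 in chow mice was Mat1a (ENSMUSG00000037798.7, chr14:41105035-41124412, plus strand), which makes S-adenosylmethionine in adult liver. It had 21111, 34986, 32798, 18013 and 21411 normalized counts in chow MCOPPB, against 20654, 10168 and 12750 in chow saline. The log2 difference was 0.83 ± 0.28 with an unadjusted p of 0.00876, and the limma adjusted p was 0.335. In chow mice 9.06% of all genes had an unadjusted p under 0.05. Of the 8 genes chosen by function, Mat1a was the 1 below it here.

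Ahcy (ENSMUSG00000027597.15, chr2:155059310-155074497, minus strand), which splits S-adenosylhomocysteine, had 14650, 25053, 17168, 29238 and 21072 normalized counts in chow MCOPPB, against 12950, 18049 and 11504 in chow saline (log2 difference 0.58 ± 0.29, limma adjusted p = 0.592). The near-identical Gm4737, with 99.7% identity over 2083 bases, was at 0 in every library. Bhmt had 45746, 108222, 54944, 36646 and 18319 in chow MCOPPB, against 33125, 25429 and 30208 in chow saline (0.61 ± 0.52). Gnmt had 6851, 14096, 8846, 6141 and 13258 in chow MCOPPB, against 8214, 4643 and 7447 in chow saline (0.50 ± 0.34). For each of these genes chow MCOPPB reached higher than chow saline but also overlapped it.

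Nnmt had 1045, 879, 1160, 1984 and 1262 normalized counts in chow MCOPPB, against 561, 1028 and 1199 in chow saline (0.42 ± 0.28). Nnmt is known to be expressed in adipose tissue as well as in liver. Adipoq, the defining marker of adipocytes, had 0 to 44.2 normalized counts in chow MCOPPB, against 14.2, 0 and 147 in chow saline. The mouse with the most Adipoq was also the one with the most Nnmt in chow saline (replicate 3) but not in chow MCOPPB, where these were replicates 3 and 4. The sum of 8 adipocyte markers, most of it Car3, which liver also expresses, was 21907 to 52247 in chow MCOPPB and 31324 to 48106 in chow saline. The part of fat tissue in the Nnmt value was not tested. Pemt (ENSMUSG00000000301.16, chr11:59970614-60046489, minus strand), which methylates phosphatidylethanolamine to phosphatidylcholine, ranged from 1270 to 2820 in chow MCOPPB and from 1165 to 2589 in chow saline. Gamt and Cbs differed by less than their SE.

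Single chow libraries stood out across several members. Chow MCOPPB 4 had the highest value of all 15 libraries for Inmt, Nnmt, Pemt, Ahcy and Gamt, and chow MCOPPB 2 for Gnmt, Bhmt and Mat1a. Chow MCOPPB 4 was also the library with the highest estimated depth (18.7 M) and the highest mitochondrial share. Whether these features contributed to its values was not tested. The sum of Kupffer cell and macrophage markers also differed between the chow groups, at 2012 to 3564 normalized counts in chow MCOPPB and 1035 to 1518 in chow saline over 13 genes. Of the 12 that passed the filter, 10 had positive and 2 negative log2 differences, with 0 limma calls, beside 0.320% of all genes tested.

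**Figure D3:**
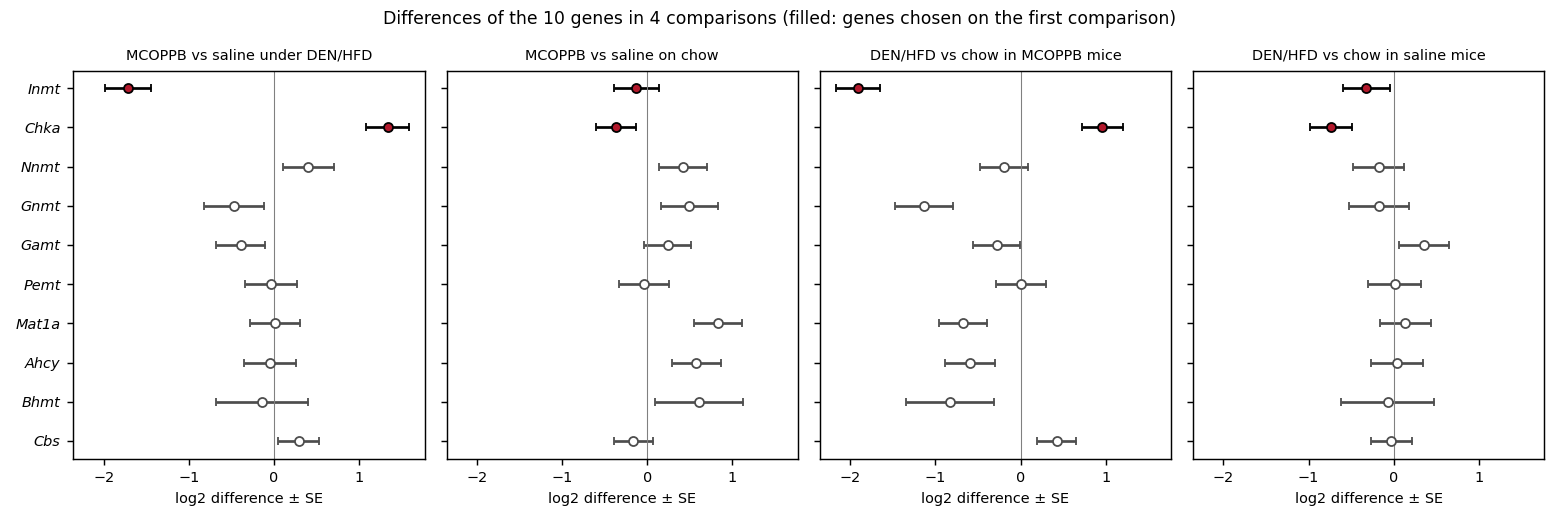
Log2 difference of each gene (horizontal axis, points with whiskers of 1 moderated SE) in 4 comparisons, each the first-named group minus the second. Filled points are Inmt and Chka, which were chosen on the leftmost comparison. The 8 open points lie within 0.5 of 0 in the leftmost panel, and Gnmt reaches -1.13 in the comparison of DEN/HFD MCOPPB with chow MCOPPB.

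The third comparison set DEN/HFD against chow in saline mice, that is without the ligand. None of the 8 genes chosen by function had a limma adjusted p under 0.05, the smallest being 0.709, and none had an unadjusted p under 0.05. Of all genes tested, 6 (0.0519%) passed, 11.0% had an unadjusted p under 0.05 and 9.09% did not overlap between the groups. All 10 members overlapped, which at these shares does not set them apart. The log2 differences of the 8 genes ran from -0.18 for Nnmt to 0.35 ± 0.29 for Gamt, with a median of -0.01. Gamt had 2105, 1554, 1264 and 1740 normalized counts in DEN/HFD saline, against 860, 1900 and 1224 in chow saline. Inmt and Chka share libraries with the comparison that chose them and were not tested here. Inmt had a log2 difference of -0.32 ± 0.27, and Chka one of -0.74 ± 0.25, with means of 72.1 ± 21.8 normalized counts in DEN/HFD saline and 172 ± 79.5 in chow saline and overlapping mice.

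The fourth comparison, of DEN/HFD with chow among MCOPPB mice, gave the largest differences of the genes chosen by function. It shares the chow MCOPPB libraries with the second comparison, so both are not independent. Gnmt had 4943, 3154 and 4710 normalized counts in DEN/HFD MCOPPB, against 6851, 14096, 8846, 6141 and 13258 in chow MCOPPB. The groups did not overlap, as for 9.31% of all genes tested in this comparison. The log2 difference was -1.13 ± 0.34 with an unadjusted p of 0.00366, but the limma adjusted p was 0.153 and missed the threshold. It ranged from -1.28 to -0.93 when single libraries were left out.

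Mat1a had 20099, 12558 and 14594 normalized counts in DEN/HFD MCOPPB, against 21111, 34986, 32798, 18013 and 21411 in chow MCOPPB (log2 difference -0.68 ± 0.28, unadjusted p = 0.0272, limma adjusted p = 0.322). The groups overlapped through DEN/HFD MCOPPB 1 and chow MCOPPB 4. Mean Mat1a was 15750 ± 3901 in DEN/HFD MCOPPB, 15527 ± 3265 in DEN/HFD saline and 14524 ± 5463 in chow saline, against 25664 ± 7667 in chow MCOPPB. Ahcy had 15836, 14701 and 11221 in DEN/HFD MCOPPB, against 14650, 25053, 17168, 29238 and 21072 in chow MCOPPB (-0.59 ± 0.29, limma adjusted p = 0.425). Mean Ahcy was 13920 ± 2405 in DEN/HFD MCOPPB, 15098 ± 6178 in DEN/HFD saline and 14168 ± 3438 in chow saline, against 21436 ± 5881 in chow MCOPPB. Bhmt differed by -0.83 ± 0.52, and by -0.08 without DEN/HFD MCOPPB 2, its lowest library. Over processing settings other than left-out libraries, the log2 difference of Ahcy ran from -0.60 to -0.05 and that of Bhmt from -1.21 to -0.02. Cbs differed by 0.43 ± 0.23 (limma adjusted p = 0.477).

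None of the 8 passed in this comparison, where 66 genes (0.571%) of the table did. Of the 8, 2 had an unadjusted p under 0.05, beside 12.3% of all genes. The median log2 difference of the 8 was -0.44, against -0.01 over all genes tested. Inmt and Chka had log2 differences of -1.91 ± 0.26 and 0.96 ± 0.24, given without a test because the DEN/HFD MCOPPB libraries chose them. Neither gene overlapped between the groups.

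The difference between both MCOPPB effects, under DEN/HFD minus on chow, was tested for the 8 genes chosen by function. None passed (smallest limma adjusted p = 0.835), and none had an unadjusted p under 0.05, whereas 8 genes of the table (0.0692%) passed and 5.90% had an unadjusted p under 0.05. The estimates were -0.96 ± 0.49 for Gnmt, -0.82 ± 0.41 for Mat1a, -0.63 ± 0.42 for Ahcy, -0.63 ± 0.40 for Gamt and 0.46 ± 0.33 for Cbs. For Inmt and Chka this difference contains the values that chose them. It was -1.59 ± 0.38 for Inmt and 1.70 ± 0.34 for Chka.

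The wider pathway was read from lists of methionine cycle, methyltransferase, choline, transsulfuration, folate, creatine, nicotinamide, polyamine and flavin monooxygenase genes, of which 119 of 130 other than the members passed the filter. Under DEN/HFD, MCOPPB against saline gave 0 limma calls among them, with 10 at an unadjusted p under 0.05 and 4.74% of all genes at that level. The smallest p values belonged to Etnk2 and Csad. Etnk2, an ethanolamine kinase gene, had 1116, 895 and 1001 normalized counts in DEN/HFD MCOPPB, against 1176, 2092, 1386 and 2414 in DEN/HFD saline (log2 difference -0.71 ± 0.22, limma adjusted p = 0.704). Csad, which makes hypotaurine on the way to taurine, had 751, 1084 and 808 in DEN/HFD MCOPPB, against 528, 393, 768 and 197 in DEN/HFD saline (0.90 ± 0.30, limma adjusted p = 0.761). Etnk2 did not overlap between the groups and Csad did, through DEN/HFD saline 3.

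In chow mice 1 of the 119 genes rose with MCOPPB and none fell, where 37 of all genes tested (0.320%) passed. Fmo1, a flavin monooxygenase gene whose enzyme oxidizes hypotaurine to taurine, had 2384, 2680, 2850, 4331 and 3055 normalized counts in chow MCOPPB, against 1156, 1599 and 1690 in chow saline. All 5 chow MCOPPB mice were above the 3 chow saline mice (log2 difference 0.99 ± 0.20, limma adjusted p = 0.0439). The call was lost when any 1 library other than DEN/HFD saline 4 or chow MCOPPB 1 was left out. In the same mice the sum of 16 female-biased genes was 8366 to 15930 in chow MCOPPB and 939 to 2366 in chow saline, and that of 16 male-biased genes was 38228 to 129417 in chow MCOPPB and 393396 to 519768 in chow saline. The part of these in the Fmo1 value was not tested.

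By list, with members included, the genes with positive log2 differences in chow mice can be set beside 5798 of 11568 genes over the table. They numbered 7 of 7 for choline oxidation to betaine and glycine (median 0.23), 4 of 4 flavin monooxygenases (0.67), 18 of 24 folate genes (0.25) and 8 of 11 methionine cycle genes (0.16). Polyamine genes had 7 of 11 (0.09), nicotinamide and NAD genes 11 of 19 (0.06), and transsulfuration and taurine genes 8 of 14 (0.06). Of the other lists, choline uptake and phospholipid synthesis had 9 of 24 genes (-0.13), small-molecule methyltransferases 6 of 14 (-0.05) and creatine genes 2 of 5 (-0.20). Apart from Fmo1, no gene of these lists was called.

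DEN/HFD against chow in saline mice gave 0 calls among the 119 genes. An unadjusted p under 0.05 was found for 8 of the 119, and for 11.0% of all genes tested. The smallest p values belonged to Nmnat3 (0.51 ± 0.18, limma adjusted p = 0.286), a mitochondrial enzyme of NAD synthesis, and Folr2 (0.59 ± 0.21, limma adjusted p = 0.297), a folate receptor known from macrophages. Folr2 had 46.2, 89.0, 47.3 and 84.9 normalized counts in DEN/HFD saline, against 22.4, 36.2 and 18.2 in chow saline. The sum of the 13 Kupffer cell and macrophage markers moved the same way, at 2036 to 4234 in DEN/HFD saline and 1035 to 1518 in chow saline, and its part in the Folr2 value was not tested. Of the 12 markers that passed the filter, 11 had positive and 1 a negative log2 difference, with 0 limma calls, beside 0.0519% of all genes tested.

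Among MCOPPB mice, 4 of the 119 genes were called lower and none higher in DEN/HFD than in chow. Of all genes tested, 40 were called lower and 26 higher (0.571% in all). Nampt, the rate-limiting enzyme of NAD salvage from nicotinamide, had 321, 293 and 289 normalized counts in DEN/HFD MCOPPB, against 802, 621, 943, 517 and 602 in chow MCOPPB (log2 difference -0.998 ± 0.18, limma adjusted p = 0.0153). Nmrk1, which phosphorylates nicotinamide riboside, had 138, 62.9 and 101 in DEN/HFD MCOPPB, against 318, 305, 232, 562 and 376 in chow MCOPPB (-1.30 ± 0.25, limma adjusted p = 0.0258). Both NAD salvage genes were lower in each DEN/HFD MCOPPB mouse than in any chow MCOPPB mouse.

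Fmo2, a flavin monooxygenase gene, had 56.6, 91.6 and 49.1 normalized counts in DEN/HFD MCOPPB, against 165, 256, 199, 539 and 376 in chow MCOPPB (-1.40 ± 0.26, limma adjusted p = 0.0192). Chow MCOPPB was its highest group, with a mean of 307 ± 153. The means were 65.8 ± 22.7 in DEN/HFD MCOPPB, 38.3 ± 16.6 in DEN/HFD saline and 99.0 ± 35.7 in chow saline. On chow, Fmo2 differed between MCOPPB and saline by 1.08 ± 0.26 (limma adjusted p = 0.119). Etnk2 had 1116, 895 and 1001 in DEN/HFD MCOPPB, against 1901, 2394, 2103, 1613 and 2437 in chow MCOPPB (-0.99 ± 0.21, limma adjusted p = 0.0454). Neither gene overlapped between DEN/HFD MCOPPB and chow MCOPPB. The 4 calls became 0 without DEN/HFD MCOPPB 1 or without DEN/HFD MCOPPB 3, 1 without DEN/HFD MCOPPB 2 or chow MCOPPB 5, and 2 without chow MCOPPB 1. They became 0 with the first RIN as a covariate. Over all genes tested, the 66 calls became 0 with the first RIN, 27 without DEN/HFD MCOPPB 1 and 18 without DEN/HFD MCOPPB 3. Other sums differed between the same livers without overlap. The clock list summed to 3069 to 4457 in DEN/HFD MCOPPB and 5676 to 10052 in chow MCOPPB, with 15 of 19 genes lower, 4 of them called, and 4 higher. The female-biased list summed to 3752 to 5178 in DEN/HFD MCOPPB and 8366 to 15930 in chow MCOPPB. The red blood cell list of 6 genes summed to 3823 to 4676 in DEN/HFD MCOPPB and 7421 to 13093 in chow MCOPPB. The part of these in the 4 called differences was not tested.

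The chow MCOPPB libraries are the reference here and were the tested group in the comparison of the chow mice. The counts by list of both comparisons are therefore not independent, and in both the first RIN and the group cannot be told apart. By list, again with members included, negative log2 differences in DEN/HFD MCOPPB against chow MCOPPB can be set beside 5855 of 11568 genes over the table. They were found in 7 of 7 choline oxidation genes (median -0.22), 4 of 4 flavin monooxygenases (-0.35), 9 of 11 methionine cycle genes (-0.41), 8 of 11 polyamine genes (-0.14) and 13 of 19 nicotinamide and NAD genes (-0.18). Small-molecule methyltransferases had 9 of 14 (-0.18), folate genes 14 of 24 (-0.11) and creatine genes 3 of 5 (-0.22). Choline uptake and phospholipid synthesis genes had 11 of 24 (median 0.01), and transsulfuration and taurine genes 6 of 14 (0.10). The methyltransferase list holds Inmt and the choline uptake list holds Chka. Both genes were chosen on the DEN/HFD MCOPPB libraries, so nothing is read from the counts of these lists.

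The difference between both MCOPPB effects gave 0 calls among the 119 genes. An unadjusted p under 0.05 was found for 12 of the 119, and for 5.90% of all genes tested. The smallest p values were those of Etnk2 (-1.14 ± 0.31, limma adjusted p = 0.453) and Nmrk1 (-1.19 ± 0.37, limma adjusted p = 0.577).

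**Figure D4:**
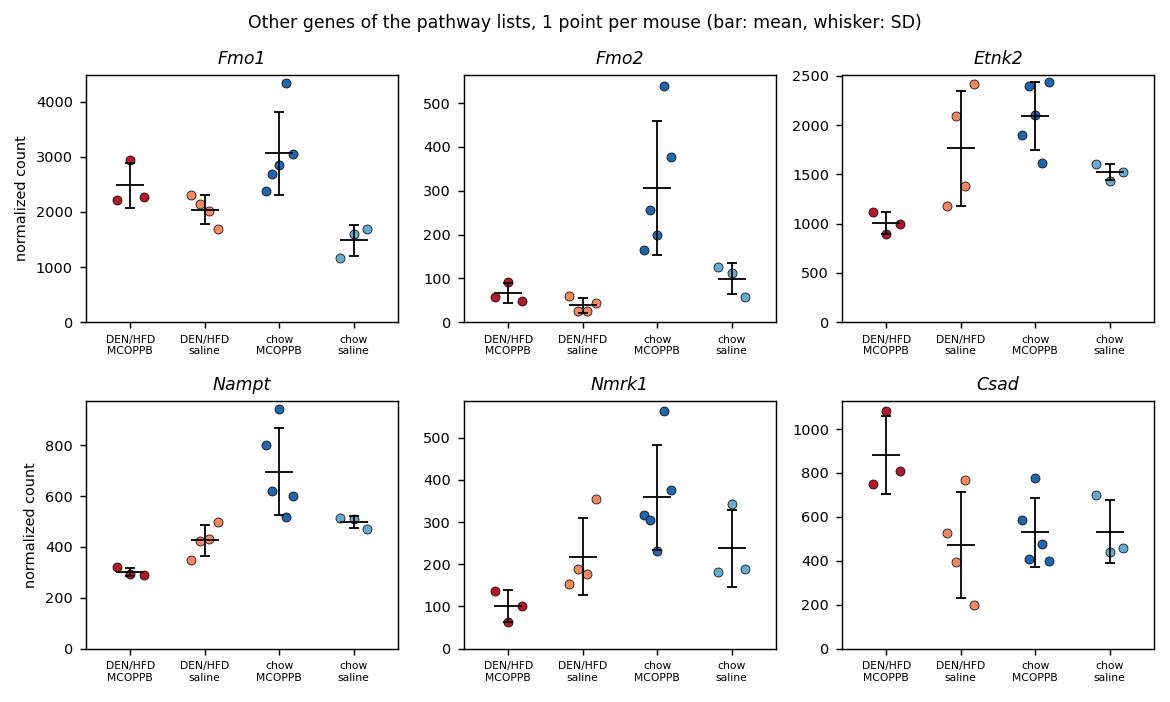
Normalized count (vertical axis, linear, starting at 0) of 6 other genes of the pathway lists in every mouse, by group, with bars for means and whiskers for SD. Fmo1 is higher in the 5 chow MCOPPB mice than in the 3 chow saline mice, and Fmo2, Etnk2, Nampt and Nmrk1 are lower in the 3 DEN/HFD MCOPPB mice than in the 5 chow MCOPPB mice.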

How the data were processed

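Values were deposited by the authors as variance-stabilised expression on a log2 scale, for 54281 Ensembl gene IDs in 15 libraries. Libraries were directional, from 250 ng of RNA, with single 75 nt reads, per the labels' protocols. Per the submitters' processing notes, Trimmomatic, STAR 2.7.0e, HTSeq and DESeq2 were used with GRCm38 (mm10), with roles not stated. The lowest value, 5.49, stands for 0 reads. Inverting the transformation from it gave the normalized counts of the text. Whole reads could not be recovered, so depth is an estimate and has no counting interval. GENCODE M21 gave names and positions for 54107 IDs.

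Genes were kept if 3 or more libraries exceeded the lowest value by 1 (log2) or more, that is 22.5 normalized counts. limma 3.58.1 in R 4.3.3 fitted 4 group means with a variance trend (11 residual degrees of freedom, median prior 6.34), without covariates. P values were two-sided, adjusted by the Benjamini-Hochberg method over 11568 genes, and called under 0.05. They set each difference against the spread between animals within groups, pooled over the 4 groups and moderated. The script was tested on simulated data.

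Named were the 10 members, the pathway genes called in a comparison (otherwise the 2 with the smallest p) and the 5 genes nearest to Inmt and to Chka. Members and lists were chosen with earlier results of these data known. Alternatives were leaving out each library, filters, normalizations, pseudocounts, variance models, weights, RIN and the replicate number.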

Additional observations from a re-analysis of the deposited data

Results flagged for a closer look

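Inmt in DEN/HFD saline 4, at 7118 normalized counts, stood far from the other 3 DEN/HFD saline mice, which ranged from 3576 to 3786. Inmt in chow MCOPPB 4, at 8084, stood far from the other 4 chow MCOPPB mice, which ranged from 4076 to 5091. These were 2 of 36 groups examined for a sample far from the others, and chance flags about 1 in 20.

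Etnk2 was lower in every DEN/HFD MCOPPB mouse than in any DEN/HFD saline mouse and higher in every chow MCOPPB mouse than in any chow saline mouse. The test of the difference between both effects gave -1.14 ± 0.31 (log2, limma adjusted p = 0.453). Nampt showed the same directions, and its difference between both effects was -0.80 ± 0.26 (limma adjusted p = 0.596). Neither passed the threshold.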

How the results depend on the processing

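Of the outcomes for 36 single-gene values under up to 28 settings, 922 kept their direction and side of the threshold, 66 no longer passed, 9 newly passed and 3 reversed. The reversals came with the first RIN as a covariate: Nnmt (-0.0168) and Bhmt (-0.00078) in chow MCOPPB against chow saline, and Gamt (0.50) in DEN/HFD MCOPPB against chow MCOPPB. Some estimates that kept their direction still came near 0 in settings other than left-out libraries. In DEN/HFD MCOPPB against chow MCOPPB, Ahcy reached -0.05 and Bhmt -0.02, while Gnmt stayed at -0.93 or lower and Mat1a at -0.62 or lower. In chow MCOPPB against chow saline, Ahcy reached 0.17. The causes were not tested.

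Among the 8 members other than Inmt and Chka, 0 were called in each comparison and setting, except for 1 (Gnmt) between DEN/HFD MCOPPB and chow MCOPPB with array weights (limma adjusted p = 0.0368, within a range of 0.0368 to 0.530 over its settings). Over all genes tested, array weights gave 285 calls in that comparison, beside 66 in the main fit. The counts that follow include Inmt and Chka, and since both genes were chosen on some of these libraries, no test is read from the counts. Members called between DEN/HFD MCOPPB and DEN/HFD saline (1, Inmt) numbered 0 to 2 on leaving out single libraries, and 0 without any 1 of the 7 libraries compared or without chow saline 3, and 2 (Inmt and Chka) without chow MCOPPB 2 or chow saline 2. They numbered 0 with quantile normalization, the replicate block or the second RIN (an alternative chosen after seeing the data), and 2 with array weights. Over all genes tested, 3 were called in the main fit, 8 with array weights, 4 without chow MCOPPB 2 and 6 without chow saline 2. In each setting with 0 members called here, 0 of all genes tested were called. Between DEN/HFD MCOPPB and chow MCOPPB, the 1 member called became 1 to 2 on leaving out single libraries (2 without chow MCOPPB 4 or chow saline 2), 3 with array weights (Gnmt, Inmt and Chka) and 0 with the first RIN. Calls over all genes tested were 79 without chow MCOPPB 4, 99 without chow saline 2 and 0 with the first RIN. For the difference between both effects, 0 members became 1 (Chka) without chow MCOPPB 4, and 0 to 1 over single libraries left out. Without chow MCOPPB 4, 12 of all genes tested were called for this difference, beside 8 in the main fit.

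Of the pathway genes, the 1 called on chow became 0 to 1 over single libraries left out, and 0 with no filter, only the groups compared, array weights, either RIN or the replicate block. Over all genes tested on chow, the 37 calls became 16 to 51 over single libraries left out. They became 36 with no filter, 38 with only the groups compared, 30 with array weights and 23 with the replicate block. With the first RIN they became 15 and with the second 26. The 4 called between DEN/HFD MCOPPB and chow MCOPPB became 0 to 4 over single libraries left out, 2 with no filter or the second RIN, 8 with array weights, and 0 with the first RIN or the replicate block. Over all genes tested, the 66 calls of that comparison became 18 to 157 over single libraries left out and 285 with array weights. They became 45 with no filter, 34 with the second RIN, 16 with the replicate block and 0 with the first RIN.

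Replicate numbers were not taken as pairs: the residuals of 19 same-numbered pairs had a mean correlation of -0.0273, with 5 over 0.1, beside 0.00838 for 64 other pairs. With 3 to 5 animals per group, missing the threshold does not show that a difference is absent, and the log2 scale shrinks the differences of Chka, the lowest of the 10 members.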
